A study of Homo sapiens with 18 samples.

Results

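The nuclear-encoded respiratory chain subunits are the proteins of mitochondrial complexes I to V whose genes lie in the nucleus. They were chosen by gene symbol alone, from the subunit families of the 5 complexes without pseudogenes, and 79 of the 25343 genes in the tables met the rule. Complex I had 36 members, complex II 4, complex III 10, complex IV 10 and complex V 19. The RNA came from xenograft tumours of HCT116 cells, a line established from a human colon cancer, and the genotype of every group was PTDSS2-KO. PTDSS2 and PTDSS1 encode the enzymes that make phosphatidylserine, and the series title describes an inhibitor of PTDSS1. Mice received vehicle, or the compound DS55980254 at 10 or 30 mg/kg by mouth in 0.5% methylcellulose, and each group had 6 tumour libraries taken 24 hours later. The labels give neither the strain or age of the mice nor how many knockout clones were used. Nor do they say whether any mouse gave more than 1 tumour, so p-values measure the spread between these libraries only.

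The respiratory chain passes electrons from NADH through complex I, or from succinate through complex II, to ubiquinone, then through complex III and cytochrome c to complex IV, which reduces oxygen. Complexes I, III and IV pump protons across the inner membrane, and complex V, the ATP synthase, uses the gradient to make ATP. Complex II is encoded in the nucleus alone. The other complexes also need subunits from mitochondrial DNA, whose genes had no rows in these tables and are not analysed here. In colon epithelium and in tumours derived from it this machinery runs beside glycolysis.

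Total counts were 3435423 to 8538792 in 17 libraries and 433981 in 10 mg/kg replicate 2. The members took 0.447% to 0.692% of the counts, lowest in 10 mg/kg replicate 2, where all members together had 1939 counts, and highest in 30 mg/kg replicate 5. The mean correlation of 10 mg/kg replicate 2 with the other libraries was 0.726, against 0.942 to 0.954 for the remaining 17. PTDSS2 RNA was present in all groups. Its lowest, median and highest CPM were 4.97, 8.63 and 12 with vehicle, 7.11, 8.72 and 13.9 at 10 mg/kg and 5.32, 6.30 and 13.4 at 30 mg/kg. Without a PTDSS2 wild-type library these values do not check the genotype label. CPM are counts scaled to a common library size, and TPM are the authors' values, which are also scaled for transcript length. Summed over 6 epithelial markers, the lowest, median and highest CPM were 5320, 5920 and 7020 with vehicle, 4130, 5890 and 7400 at 10 mg/kg and 5630, 5940 and 7100 at 30 mg/kg. In bulk tumour RNA, fewer cells of a type and less RNA per cell cannot be told apart.

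No member passed the test in any comparison. With edgeR's quasi-likelihood test and Benjamini-Hochberg adjustment, 0 of the 78 members tested passed an adjusted p of 0.05 in the comparison of 10 mg/kg with vehicle, where 0.469% of all genes passed. The comparison of 30 mg/kg with vehicle also called 0 of 78, against 0.618% of all genes, and that of 30 mg/kg with 10 mg/kg called 0 of 78 and 0% of all genes. The test for any difference among the 3 groups called 0 of 78 members and 0.568% of all genes. Members with an unadjusted p under 0.05 numbered 1 at 10 mg/kg, 2 at 30 mg/kg, 2 between the doses and 2 for any difference, while 9.5%, 7.9%, 3.52% and 7.6% of all genes reached that level in the same 4 comparisons. DESeq2, limma-voom and limma-trend on TPM called 0 members as well. In no comparison did the CPM of a member's 2 groups lie apart without overlap, which 1.16% of all genes showed at 10 mg/kg, 1.73% at 30 mg/kg and 0.135% between the doses.

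The precision bounds what could have been seen. At 30 mg/kg the 95% interval of the log2 fold change lay within 1 log2 unit of 0 for 76 of 78 members and within a 1.5-fold change for 62. At 10 mg/kg these numbers were 75 and 61. The fitted folds ran from 0.712 to 1.36 at 10 mg/kg and from 0.779 to 1.42 at 30 mg/kg. The ends of both ranges belong to complex I, and NDUFB6 and NDUFA1 are named here because of those values. NDUFB6, an accessory subunit of the membrane arm, was lowest at both doses, with log2 fold changes of -0.49 (SE 0.26) at 10 mg/kg and -0.36 (SE 0.25) at 30 mg/kg. It had 0 counts in 10 mg/kg replicate 2, where 3 counts would have been 6.02 CPM, against 6.25 to 11.7 CPM in the other libraries at that dose, and without that library the log2 fold change at 10 mg/kg was -0.41 (SE 0.22). NDUFA1, a small membrane subunit, was highest at 30 mg/kg, with a log2 fold change of 0.50 (SE 0.38). Its 30 mg/kg libraries were split, with 59.3, 71.2 and 56.2 CPM in replicates 3, 5 and 6. Replicates 1, 2 and 4 had 18.4, 18.2 and 15.2 CPM, and vehicle libraries ran from 17.3 to 52.9 CPM.

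**Figure D1:**
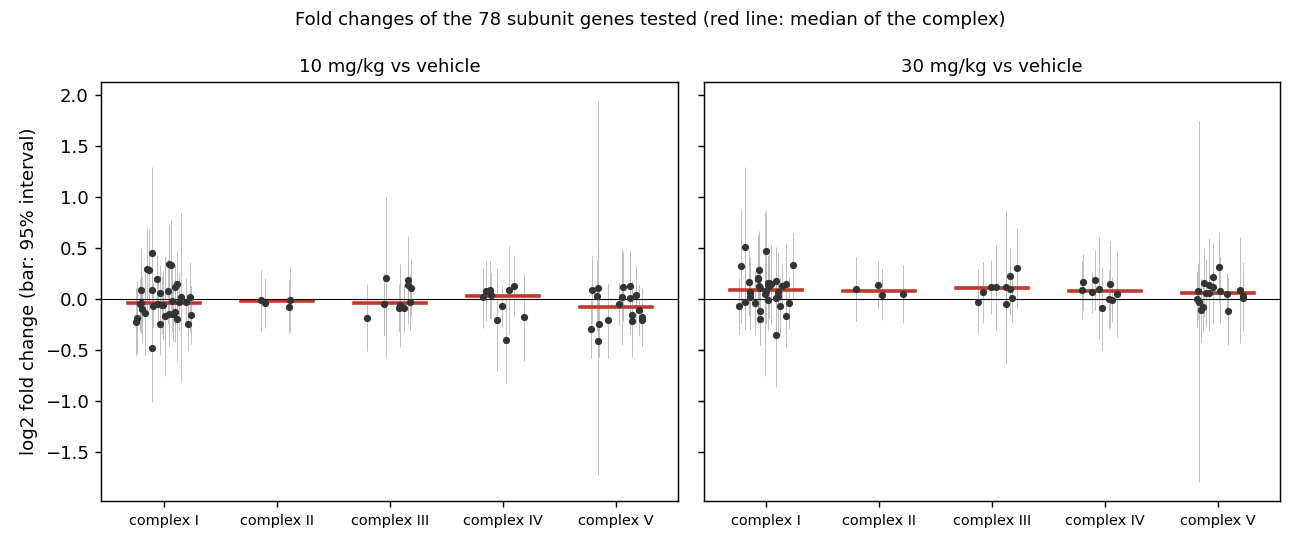
Log2 fold change of each of the 78 members tested (points, with 95% intervals as bars), by complex, for 10 mg/kg (left) and 30 mg/kg (right) against vehicle; red lines are medians of a complex. Complex medians lie between -0.083 and 0.023 at 10 mg/kg and between 0.053 and 0.10 at 30 mg/kg, and the intervals span 0 except for ATP5PO at 10 mg/kg and NDUFA3 and NDUFA6 at 30 mg/kg.

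The shared letters in the members' promoters were described from RefSeq sequences of build GRCh38.p14, which reach from 250 bases before to 50 bases after each gene start. An entry was found for 63 members and not for 16. The letters searched, on both strands, were GCATGCGC for NRF1, CCGGAAGT for GABPA, AAGATGGC for YY1 and TCAAGGTCA for ESRRA. These 4 are factors known to regulate nuclear genes for mitochondrial proteins. The NRF1 letters were in 13 promoters (20.6%), against 5.35% of the promoters of all tested genes and 3.27% of all promoters. The GABPA letters were in 10 (15.9%), against 8.54% and 4.44%. The YY1 letters were in 11 (17.5%), against 5.18% and 3.03%, and those of ESRRA in 1, that of SDHD. In all, 28 members held at least 1 of the 4 and 35 held none. NRF1 and GABPA matches occurred together in 2 promoters.

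The YY1 matches lay mostly inside the transcribed region. In 9 members (14.3%) they were on the plus strand within the first 50 bases of the gene, an arrangement found in 3.01% of tested genes. NDUFA3, NDUFA6, SDHB, UQCRC1 and ATP5PO were among these 9. The NRF1 and GABPA matches lay mostly before the gene start, on either strand.

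**Figure D2:**
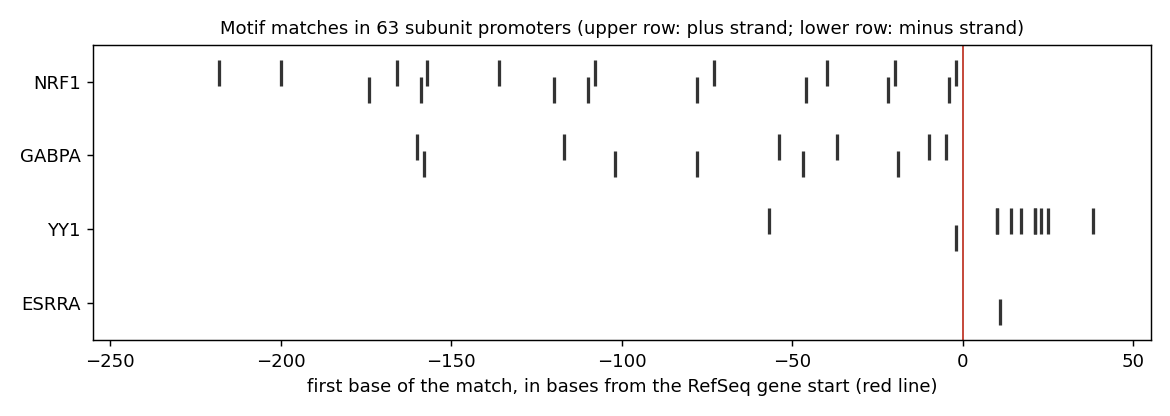
Position of each motif match in the 63 member promoters, in bases from the RefSeq gene start at 0, with matches on the plus strand in the upper row of each motif and those on the minus strand in the lower row. YY1 matches gather on the plus strand between 10 and 38 bases after the start.

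The 120 bases before the gene start are shown for members that the naming rule given below selects and that hold a match there. ATP5MC2, added outside that rule, also holds NRF1 letters there and is not shown. Capitals mark the matched letters, and each sequence reads 5′ to 3′ on the strand of the gene. NDUFA13 lies at chr19:19516105-19516224 (plus strand), SDHD at chr11:112086753-112086872 (plus), UQCRH at chr1:46303578-46303697 (plus), UQCRQ at chr5:132866522-132866641 (plus) and ATP5PD at chr17:75046970-75047089 (minus).
NDUFA13: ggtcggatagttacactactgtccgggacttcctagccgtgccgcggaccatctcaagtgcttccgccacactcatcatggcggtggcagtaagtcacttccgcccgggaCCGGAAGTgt
SDHD: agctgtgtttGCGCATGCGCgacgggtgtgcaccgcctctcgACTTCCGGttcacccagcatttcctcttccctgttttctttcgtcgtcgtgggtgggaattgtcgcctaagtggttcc
UQCRH: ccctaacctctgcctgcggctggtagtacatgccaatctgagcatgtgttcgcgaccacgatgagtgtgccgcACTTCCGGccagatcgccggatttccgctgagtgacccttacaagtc
UQCRQ: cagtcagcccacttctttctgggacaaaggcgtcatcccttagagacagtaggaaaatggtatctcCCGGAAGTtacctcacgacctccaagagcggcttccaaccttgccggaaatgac
ATP5PD: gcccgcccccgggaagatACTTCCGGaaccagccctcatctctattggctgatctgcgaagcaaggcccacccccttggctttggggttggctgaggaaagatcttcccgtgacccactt

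In SDHD the NRF1 letters occur on both strands and overlap, followed by GABPA letters on the minus strand. In the other 4 sequences the capitals are a single GABPA match, on the plus strand in NDUFA13 and UQCRQ and on the minus strand in UQCRH and ATP5PD. Members with and without a match had close fold changes. At 30 mg/kg the median log2 fold change was 0.08 with and 0.08 without NRF1 letters, 0.09 and 0.08 for GABPA, and 0.12 and 0.07 for YY1. At 10 mg/kg the medians were -0.02 and -0.05 for NRF1, -0.04 and -0.04 for GABPA, and -0.07 and -0.04 for YY1. The median vehicle level was 119 TPM with and 106 TPM without NRF1 letters, 214 and 105 TPM for GABPA and 92.1 and 116 TPM for YY1. A match is a description of the letters and not of binding.

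The members were well expressed in these tumours. Over the vehicle libraries the median member had a mean of 105 TPM, against 21.1 TPM for all genes tested. By complex, the median over members was 71.6 TPM for complex I, 67.4 TPM for complex II, 90.5 TPM for complex III, 276 TPM for complex IV and 165 TPM for complex V. The top of the order belonged to complex IV, where COX7C, a small membrane subunit, had a vehicle mean of 1050 TPM, and COX4I1, the ubiquitous form of the regulatory subunit 4, one of 735 TPM. The lowest members were uncertain in their counts. ATP5MGL, an ATP5MG-like retrocopy, averaged 2.92 TPM with vehicle and was removed by the filter on low counts. NDUFC2 averaged 9.03 TPM and shares sequence with the readthrough gene NDUFC2-KCTD14, and ATP5MF-PTCD1 is itself a readthrough of ATP5MF. UQCRHL is a near copy of UQCRH, SDHA has several pseudogene copies, and reads of each such pair can be split between them by the counting.

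**Figure D3:**
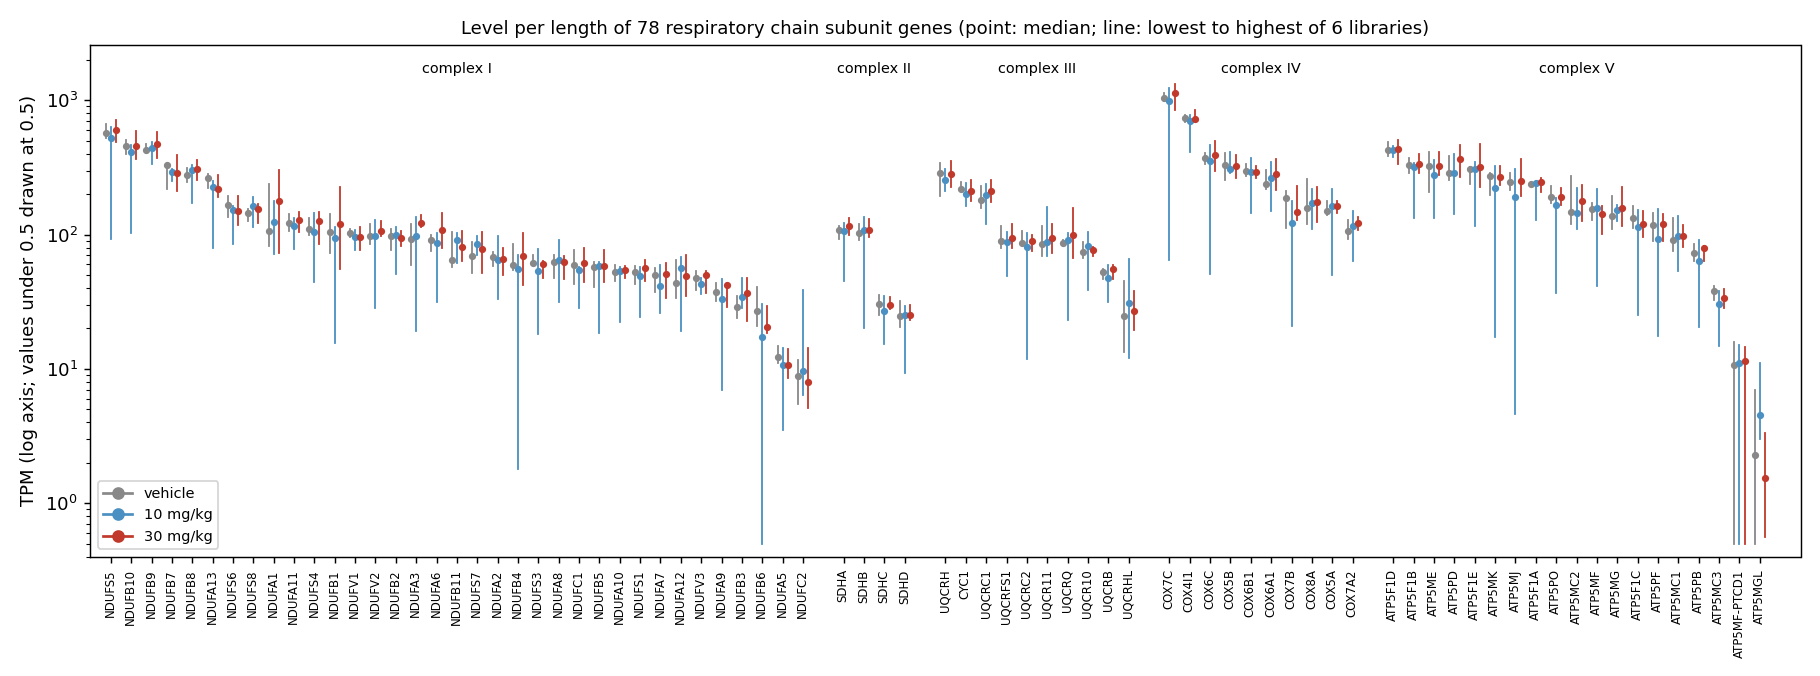
TPM of 78 of the 79 members (log axis) by group, with the median as a point and the lowest and highest of 6 libraries as a line; members are ordered by vehicle level within each complex. The medians of the 3 groups sit close together for most members, and the long downward lines at 10 mg/kg come mainly from 1 library, 10 mg/kg replicate 2. In that library a low TPM does not always go with a low CPM. ATP5F1D had 380 TPM there, the lowest of its group, but 210 CPM, the highest of its group.

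The spread between vehicle libraries was near that of all genes tested, without matching for level. The median coefficient of variation of the members was 13.2%, against 14.3% for all genes tested, whose median level was lower (29.9 against 52.1 CPM). It was smallest for ATP5F1A, the catalytic-head alpha subunit, at 1.77%, and reached 67.8% for ATP5MF-PTCD1. The CPM of ATP5MF-PTCD1 varied within all groups, between 0.406 and 42.6 with vehicle, 0 and 42.6 at 10 mg/kg, and 0 and 43.8 at 30 mg/kg. In the 2 libraries at 0, 3 counts would have been 0.637 and 0.715 CPM. These limits cover counting error only.

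Complex I is the NADH dehydrogenase, with a core that carries the flavin and the iron-sulphur clusters and a shell of accessory subunits. The 29 accessory members had a median log2 fold change of -0.054 at 10 mg/kg and 0.063 at 30 mg/kg against vehicle, with 12 and 21 of 29 above 0. None of the 36 passed in either comparison. The log2 fold changes of the accessory members ranged from -0.49 to 0.45 at 10 mg/kg and from -0.36 to 0.50 at 30 mg/kg.

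NDUFA3, an accessory membrane-arm subunit, had the smallest p of any member at 30 mg/kg. Its lowest, median and highest CPM were 8.44, 13.7 and 17.3 with vehicle, 4.28, 14.1 and 18.5 at 10 mg/kg and 16.1, 17.6 and 22.2 at 30 mg/kg. The 30 mg/kg libraries sat at the top of the vehicle range and overlapped it in 3 of 6. The log2 fold change was 0.47 (SE 0.19) at 30 mg/kg, with an unadjusted p of 0.0233 and an edgeR adjusted p of 0.505. It was 0.08 (SE 0.20) at 10 mg/kg.

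NDUFA6, an accessory subunit of the LYR family, was next. Its lowest, median and highest CPM were 42.5, 51.5 and 57.4 with vehicle, 27.8, 49.1 and 55.8 at 10 mg/kg and 45.1, 60.3 and 89.9 at 30 mg/kg. At 30 mg/kg, replicates 3, 5 and 6 lay above every vehicle library, at 78.4, 89.9 and 67.3 CPM, and the other 3 lay inside the vehicle range. The log2 fold change at 30 mg/kg was 0.33 (SE 0.15), with an unadjusted p of 0.0435 and an edgeR adjusted p of 0.603, and it was 0.21 without 30 mg/kg replicate 5. Against 10 mg/kg it was 0.39 (SE 0.16; edgeR adjusted p = 0.969).

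NDUFA13, an accessory subunit also known as GRIM-19, was lower at both doses without passing. Its lowest, median and highest CPM were 56.7, 62.2 and 68.9 with vehicle, 29.9, 54.0 and 59.9 at 10 mg/kg and 46.5, 51.3 and 74.2 at 30 mg/kg. At 30 mg/kg 5 libraries lay under every vehicle library and replicate 5 lay above them all. The log2 fold change was -0.25 (SE 0.13; edgeR adjusted p = 0.561) at 10 mg/kg. At 30 mg/kg it was -0.20 (SE 0.12; edgeR adjusted p = 0.814), and without replicate 5 it was -0.30 with an adjusted p of 0.404.

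The most abundant complex I transcripts per length did not separate the groups. NDUFS5, an accessory subunit on the intermembrane side, had lowest, median and highest values of 521, 570 and 671 TPM with vehicle, 92.4, 526 and 635 TPM at 10 mg/kg and 491, 598 and 712 TPM at 30 mg/kg. NDUFB10, an accessory subunit of the membrane arm, had 397, 458 and 508 TPM, then 103, 410 and 467 TPM, then 367, 460 and 595 TPM in the same order. Their log2 fold changes were 0.05 (SE 0.17) and 0.08 (SE 0.16) at 30 mg/kg, and -0.19 (SE 0.17) and -0.23 (SE 0.16) at 10 mg/kg. The low ends at 10 mg/kg are replicate 2 for both genes, with 17 and 24 counts.

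Among the weakest members, NDUFA5, a subunit of the matrix arm, had 11.1, 12.2 and 14.9 TPM with vehicle, 3.50, 10.6 and 14.4 TPM at 10 mg/kg and 8.49, 10.6 and 14.1 TPM at 30 mg/kg. All ranges overlapped, and the log2 fold changes were -0.25 (SE 0.15) at 10 mg/kg and -0.17 (SE 0.14) at 30 mg/kg. NDUFC2 ran the other way in 10 mg/kg replicate 2, with 72.7 CPM, while the other 5 libraries at that dose had 7.81 to 15.5. Its log2 fold change was 0.45 (SE 0.41) at 10 mg/kg and 0.04 (SE 0.39) at 30 mg/kg. The gene long known as NDUFA4 now carries the symbol COXFA4 and so was not a member. Its median CPM were 23.8 in vehicle libraries, 24.6 in those at 10 mg/kg and 25.3 in those at 30 mg/kg.

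Complex II, succinate dehydrogenase, belongs to both the respiratory chain and the citric acid cycle, and its fold changes lay closest to 0 of the 5 complexes, with a median size of 0.028 log2 units at 10 mg/kg and 0.07 at 30 mg/kg. SDHA, the flavoprotein, had lowest, median and highest CPM of 108, 126 and 139 with vehicle, 83.4, 123 and 142 at 10 mg/kg and 112, 137 and 172 at 30 mg/kg. SDHB, the iron-sulphur subunit, had 48.6, 56.7 and 65.6 CPM, then 17.1, 59.2 and 70.5 CPM, then 54.0, 57.3 and 79.4 CPM in the same order. The group medians of both genes lay inside the vehicle range.

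SDHC and SDHD are the membrane anchors. The median CPM of SDHC were 41.8 in vehicle libraries, 37.0 in those at 10 mg/kg and 43.2 in those at 30 mg/kg, and those of SDHD 16.5, 17.3 and 17.0. Over the 4 genes, log2 fold changes ran from -0.078 to -0.009 at 10 mg/kg and from 0.038 to 0.13 at 30 mg/kg. All 4 intervals lay within a 1.5-fold change at both doses.

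Complex III takes electrons from ubiquinol to cytochrome c through cytochrome c1 (CYC1) and the Rieske protein (UQCRFS1), which rest on the core proteins UQCRC1 and UQCRC2. CYC1 had lowest, median and highest CPM of 127, 129 and 149 with vehicle, 104, 125 and 150 at 10 mg/kg and 101, 127 and 166 at 30 mg/kg. UQCRC1 had 123, 144 and 191 CPM, then 135, 153 and 193 CPM, then 131, 170 and 223 CPM. The groups overlapped for both genes, and the log2 fold change of UQCRC1 at 30 mg/kg was 0.22 (SE 0.14; edgeR adjusted p = 0.798) and that of CYC1 -0.05 (SE 0.11).

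UQCRQ, a small subunit that contacts cytochrome b, had 30 mg/kg values on both sides of the vehicle range. Its lowest, median and highest CPM were 62.2, 66.6 and 71.8 with vehicle, 27.8, 70.8 and 75.7 at 10 mg/kg and 51.7, 75.8 and 134 at 30 mg/kg. At 30 mg/kg 4 libraries were above every vehicle library and 2 below. The log2 fold change there was 0.30 (SE 0.19; edgeR adjusted p = 0.823), and 0.11 without 30 mg/kg replicate 5.

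The other small subunits had closer group medians. The median CPM of UQCRB were 131 in vehicle libraries, 124 in those at 10 mg/kg and 139 in those at 30 mg/kg. UQCRH, the hinge protein, led the complex per length with 289, 255 and 284 TPM in the same order. UQCRHL, its near copy, had 24.9, 30.9 and 27 TPM on at most 45 counts in a library, so that its log2 fold changes of 0.21 (SE 0.38) at 10 mg/kg and 0.11 (SE 0.36) at 30 mg/kg are loose.

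Complex IV, cytochrome c oxidase, has a catalytic core from mitochondrial DNA and nuclear subunits around it. COX7C had lowest, median and highest values of 983, 1040 and 1130 TPM with vehicle, 64.2, 990 and 1240 TPM at 10 mg/kg and 848, 1140 and 1320 TPM at 30 mg/kg. COX4I1 had 685, 740 and 780 TPM, then 415, 704 and 774 TPM, then 705, 731 and 843 TPM. The 415 TPM is 10 mg/kg replicate 2, where COX4I1 had 248 CPM against a group median of 265 CPM. COX7C and COX4I1 have the highest levels per length in the whole set. The groups overlapped in both, with log2 fold changes at 30 mg/kg of 0.10 (SE 0.24) for COX7C and 0.06 (SE 0.10) for COX4I1.

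COX7B, a small membrane subunit, was the member of complex IV with the smallest p. Its lowest, median and highest CPM were 23.3, 36.7 and 41.3 with vehicle, 6.42, 24.0 and 34.9 at 10 mg/kg and 25.8, 29.8 and 44.2 at 30 mg/kg. At 10 mg/kg 2 libraries lay below every vehicle library, replicate 2 with 3 counts among them, 1 was level with the lowest vehicle library and 3 lay within the vehicle range. The log2 fold change was -0.41 (SE 0.20; edgeR adjusted p = 0.543) at 10 mg/kg, -0.34 without 10 mg/kg replicate 2, and -0.10 (SE 0.20) at 30 mg/kg.

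The median CPM of COX6C, a small membrane subunit, were 163 in vehicle libraries, 155 in those at 10 mg/kg and 169 in those at 30 mg/kg. The weakest complex IV members per length, COX5A and COX7A2, had medians of 151 and 106 TPM with vehicle, 163 and 115 TPM at 10 mg/kg and 163 and 122 TPM at 30 mg/kg. Of 7 tissue-specific or hypoxia-linked isoforms only COX6B2, the testis form of subunit 6B, passed the filter on low counts. The 7 isoforms together summed to median CPM of 4.07 in vehicle libraries, 4.64 in those at 10 mg/kg and 5.60 in those at 30 mg/kg.

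Complex V couples a membrane rotor and a peripheral stalk to a catalytic head. The 5 head and central stalk members, ATP5F1A to ATP5F1E, had a median log2 fold change of -0.054 at 10 mg/kg and 0.041 at 30 mg/kg. ATP5F1B, the catalytic beta subunit, had lowest, median and highest CPM of 258, 295 and 354 with vehicle, 188, 281 and 316 at 10 mg/kg and 255, 304 and 397 at 30 mg/kg. ATP5F1D, the delta subunit and the strongest of the complex per length, had 385, 430 and 487 TPM, then 380, 425 and 461 TPM, then 335, 431 and 510 TPM. The 380 TPM of ATP5F1D is 10 mg/kg replicate 2, where its 210 CPM were the highest of that group, so the 2 scales differ in this library. Neither gene separated the groups.

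The peripheral stalk is formed by ATP5PB, ATP5PD, ATP5PF and ATP5PO, of which ATP5PO and ATP5PD had the smallest p-values of the complex for any difference. ATP5PO, the oligomycin sensitivity protein that joins stalk and head, had lowest, median and highest CPM of 62.8, 72.2 and 85.3 with vehicle, 21.4, 61.6 and 67.6 at 10 mg/kg and 61.6, 72.9 and 91.2 at 30 mg/kg. At 10 mg/kg 5 of 6 libraries lay below every vehicle library and the sixth inside the vehicle range. The log2 fold change at 10 mg/kg was -0.30 (SE 0.14), with an unadjusted p of 0.0436 and an edgeR adjusted p of 0.508. It was -0.22 without 10 mg/kg replicate 2, with an adjusted p of 0.501, and -0.01 (SE 0.14) at 30 mg/kg.

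ATP5PD, the stalk subunit d, had lowest, median and highest CPM of 70.7, 80.7 and 115 with vehicle, 62.0, 78.3 and 113 at 10 mg/kg and 74.0, 102 and 144 at 30 mg/kg. The ranges overlapped, and the log2 fold change at 30 mg/kg was 0.31 (SE 0.17; edgeR adjusted p = 0.708). ATP5MJ, a small membrane subunit, had median CPM of 73.8 in vehicle libraries, 57.9 in those at 10 mg/kg and 75.1 in those at 30 mg/kg, and a single count in 10 mg/kg replicate 2. The genes ATP5MC1, ATP5MC2 and ATP5MC3, whose different precursors give the same c subunit of the rotor ring, had vehicle medians of 91.7, 148 and 37.9 TPM. Their median log2 fold changes were 0.015 at 10 mg/kg and 0.057 at 30 mg/kg.

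As a group the members leaned slightly upward at 30 mg/kg, and the size of that lean depended on single libraries of both groups. The median log2 fold change was 0.075, with 58 of 78 members above 0 (74.4%), while the median of all genes was -0.001 and 49.8% of them lay above 0. By complex the medians were 0.087 for complex I, 0.070 for II, 0.10 for III, 0.072 for IV and 0.053 for V. Without 30 mg/kg replicate 5 the median was 0.003, with 39 of 78 above 0, and without vehicle replicate 3 it was 0.112. At 10 mg/kg the median was -0.042 with 32 of 78 above 0 (41.0%), against -0.006 and 48.8% for all genes. Over left-out libraries it ran from -0.067 without vehicle replicate 5 to 0.001 without vehicle replicate 3. With all libraries the medians by complex at 10 mg/kg were -0.048, -0.028, -0.046, 0.023 and -0.083 from complex I to complex V. Between 30 and 10 mg/kg, which share these libraries, the median was 0.12 with 58 of 78 above 0, against 50.9% of all genes. It was 0.049 without 30 mg/kg replicate 5, 0.021 without that library and 10 mg/kg replicate 2, and 0.037 with the slope of each library on gene length as a covariate.

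The same library, 30 mg/kg replicate 5, stood out in each complex. A complex's level in each library was the average of log2(CPM + 0.5) over its subunits. For complex I the lowest, median and highest of 6 libraries were 5.07, 5.16 and 5.39 with vehicle, 4.64, 5.16 and 5.24 at 10 mg/kg and 5.07, 5.21 and 5.60 at 30 mg/kg. For complex II they were 5.43, 5.62 and 5.69, then 4.76, 5.60 and 5.63, then 5.51, 5.64 and 5.96. The groups overlapped, and the highest value of both complexes was 30 mg/kg replicate 5.

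Complexes III to V gave the same picture. For complex III the values were 5.68, 5.87 and 6.10 with vehicle, 5.75, 5.84 and 5.97 at 10 mg/kg and 5.78, 5.93 and 6.33 at 30 mg/kg. For complex IV they were 6.12, 6.26 and 6.41, then 5.36, 6.24 and 6.36, then 6.17, 6.27 and 6.64. For complex V they were 5.78, 6.06 and 6.21, then 5.15, 6.00 and 6.09, then 5.75, 6.01 and 6.51. The lowest vehicle and 30 mg/kg values of complex V, replicates 4 and 3, are libraries where the uncertain member ATP5MF-PTCD1 had 0.406 and 0 CPM, and without it the values were 6.03, 6.16 and 6.28, then 5.14, 6.05 and 6.21, then 6.00, 6.14 and 6.57. Replicate 5 was the highest 30 mg/kg library in all 5 complexes, and 10 mg/kg replicate 2 the lowest of its group in all but complex III.

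**Figure D4:**
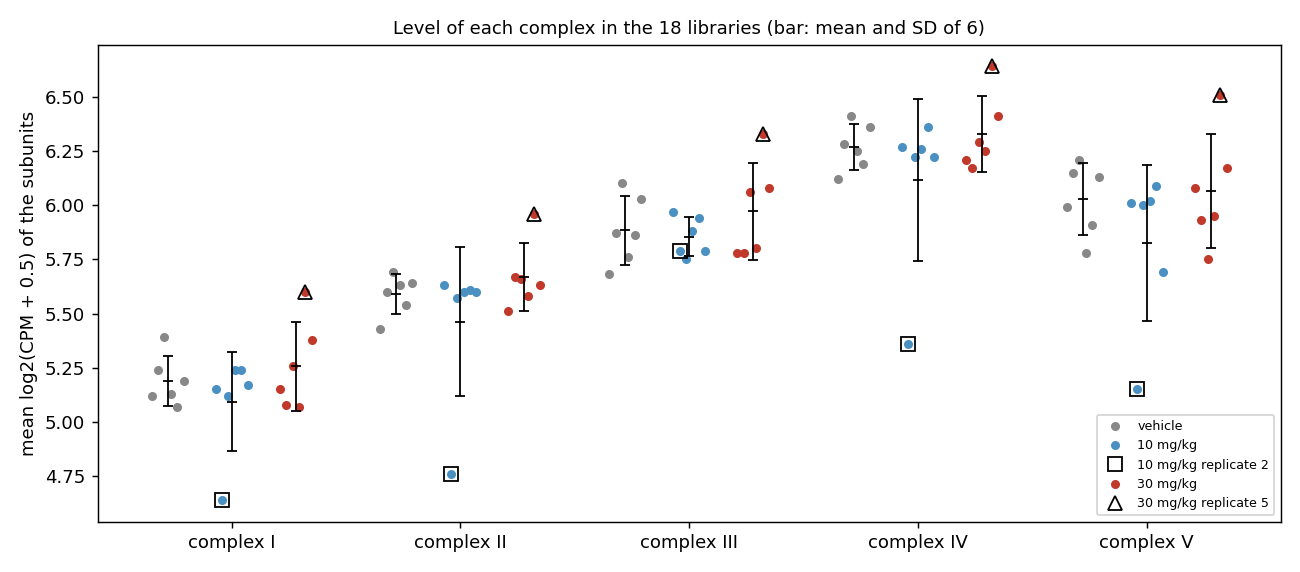
Level of each complex (mean log2(CPM + 0.5) of its members) in the 18 libraries, with mean and SD of each group of 6 as bars; the square marks 10 mg/kg replicate 2 and the triangle 30 mg/kg replicate 5. Apart from these 2 libraries the groups lie over each other, and for complex III 10 mg/kg replicate 2 sits at 5.79, inside its group.

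In 30 mg/kg replicate 5, 74 of 78 members were above their own median over the 18 libraries. There, 41 had their highest value of all libraries and none its lowest. How many of all genes had their highest or lowest value there was not counted, so these counts alone do not set the members apart. The median deviation of the members was 0.39 log2 units, and it was 0.37 to 0.41 in each complex. Respiratory chain transcripts are short, with a median length of 804 bases against 2909 for all genes tested, and 50 of 79 are under 1000 bases. In this library the deviation was 0.39 both for members under 1000 bases and for longer ones, while other genes under 1000 bases deviated by 0.18 and longer ones by -0.01. Cytoplasmic ribosomal protein genes, with a median length of 715 bases, deviated by 0.02, mitochondrial ribosomal protein genes by 0.31 and citric acid cycle genes by 0.26. The 6 epithelial markers deviated by 0.23. What part length or cell makeup had in the level of this library was not tested.

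In 10 mg/kg replicate 2 the members deviated by -0.41, 44 had their lowest value of all libraries and 9 their highest. The share of all genes with such an extreme was not counted for this library either. By complex the deviation ran from -0.63 for complex II to near 0 for complex III. Cytoplasmic ribosomal protein genes deviated by -1.07 there and mitochondrial ones by -0.58, citric acid cycle genes by -0.56 and epithelial markers by -0.39. Assembly factors of the complexes, listed below, deviated by 0.05, regulators of mitochondrial biogenesis by -0.06 and all genes tested by -0.07. Summed human genes known as markers of other cells were higher there. In a xenograft such cells come from the mouse, and how mouse reads were handled is not stated. These sums are therefore not a measure of such cells. The fibroblast, endothelial, leukocyte and muscle sums reached 317, 98.4, 32.1 and 72.7 CPM in the 10 mg/kg group. The highest vehicle sums were 109, 10.8, 16.5 and 6.78 CPM. Of the 6, 5, 5 and 5 genes in these lists, 2, 1, 2 and 1 passed the filter on low counts, and DCN, LUM, EMCN, PTPRC, CD3E and MYH2 had a vehicle median of 0. Weakly expressed genes of another kind were higher too. The summed tissue-specific or hypoxia-linked isoforms reached 27.8 CPM in the 10 mg/kg group, against a highest vehicle value of 4.85. In 10 mg/kg replicate 2 a single count is 2.14 CPM. Genes with a count numbered 19680 there, against 16902 to 21578 in the other, deeper libraries. What part depth or cell makeup had in the marker sums and the members' values was not tested. In vehicle replicate 3, the highest vehicle library in all 5 complexes, the members deviated by 0.14. In 30 mg/kg replicate 6 they deviated by 0.15, with 58 of 78 above their own median.

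**Figure D5:**
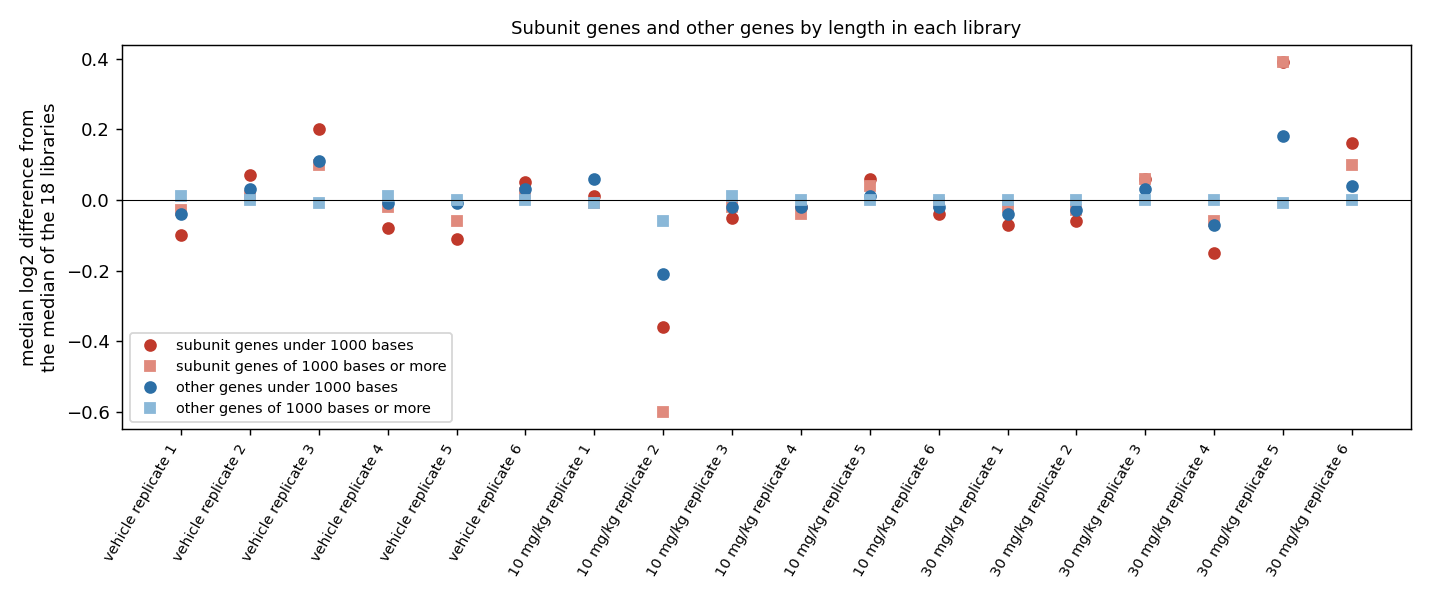
Median log2 difference from the median of the 18 libraries for members (red) and other genes (blue), each under 1000 bases (circles) and of 1000 bases or more (squares), in each library. Members of both length classes stand at 0.39 in 30 mg/kg replicate 5, and at -0.36 and -0.60 in 10 mg/kg replicate 2, while longer other genes stay near 0 in all libraries.

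Genes that work with the subunits were examined as lists. Of 46 assembly factors, which build the complexes, 0 passed in either comparison with vehicle, and 1 had an unadjusted p under 0.05 at 30 mg/kg and 0 at 10 mg/kg. Their median log2 fold changes were -0.052 at 10 mg/kg and 0.008 at 30 mg/kg. For any difference among the 3 groups the smallest p-values were those of NDUFAF2, with log2 fold changes of -0.34 at 10 mg/kg and 0.17 at 30 mg/kg, and ACAD9, with -0.09 and -0.27, both complex I assembly factors.

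The 13 citric acid cycle genes also gave 0 calls, with 1 unadjusted p under 0.05 at each dose and medians of 0.004 at 10 mg/kg and 0.10 at 30 mg/kg. OGDH, a subunit of the oxoglutarate dehydrogenase complex, had log2 fold changes of 0.19 and 0.37 at those doses, and SUCLG2, the GTP-specific succinyl-CoA ligase subunit, -0.37 and -0.11. Of 12 regulators of mitochondrial biogenesis 11 were tested and 0 passed, with 1 unadjusted p under 0.05 at 10 mg/kg and 0 at 30 mg/kg, and medians of -0.021 and -0.087. TFAM, which packages mitochondrial DNA and takes part in its transcription, stood at -0.49 and -0.17. ESRRA, a nuclear receptor of this program, stood at 0.36 and 0.10. A list of 4 further genes held cytochrome c (CYCS), ATP5IF1, NDUFAB1 and COX7A2L, none of which met the symbol rule. They had medians of 0.015 and 0.13, with 0 calls and 0 unadjusted p-values under 0.05 at either dose.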

How the data were processed

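The authors deposited 1 table per library, with expected counts (estimated reads per gene, unscaled) and TPM (scaled by transcript length and depth), per the file headers, which also give the transcript length in bases. STAR 2.4.2a and the builds hg19 and mm10 are named in the submitters' processing notes; the sources used here do not say how mouse reads were handled or what counted the reads. Libraries were made from 5 ng of total RNA with a stranded kit, per the labels' protocols.

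Expected counts were rounded and filtered with filterByExpr, which left 14074 of 25343 genes, scaled by TMM and fitted over all 18 libraries with edgeR 4.0.16 (robust quasi-likelihood) in R 4.3.3, with Benjamini-Hochberg adjustment over all genes and a threshold of 0.05. The fit was tested on simulated data. Symbols were matched by gene ID for 25220 genes and by accession for 26, and 97 had none. Alternatives used DESeq2 1.42.0, limma 3.58.1, other scalings and filters, and left-out libraries.

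By rule the text names the members of each complex with the 3 smallest p-values for any difference, the 2 highest and 2 lowest vehicle TPM, all of complex II and any removed by the filter. NDUFB6, NDUFA1, ATP5F1A and the ATP5MC genes were added after their values were seen. The members and lists were chosen with earlier results of these data known. Single values of 1 member are not reported here.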

Additional observations from a re-analysis of the deposited data

Results flagged for a closer look

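For 105 sets of 6 libraries (each named member and each complex level in each group), the gap of the highest or lowest library to its nearest neighbour was compared with the range of the group. In 16 sets the gap passed Dixon's critical value for 6 values, which chance gives in about 1 of 20 sets. Of these, 11 are 10 mg/kg replicate 2, the library with the fewest counts, and 3 are 30 mg/kg replicate 5.

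In 10 mg/kg replicate 2 the complex levels stood apart on the low side. The mean log2(CPM + 0.5) of all members was 5.01 there, against 5.52 to 5.69 in the rest of the group. It was 4.64 for complex I against 5.12 to 5.24, 4.76 for complex II against 5.57 to 5.63 and 5.36 for complex IV against 6.22 to 6.36. Single genes stood low with it. NDUFB10 had 51.3 CPM against 118 to 144, NDUFS5 36.4 against 129 to 153 and COX7C 17.1 against 136 to 202. ATP5F1B had 188 CPM against 272 to 316 and ATP5PO 21.4 against 59.7 to 67.6. NDUFC2 and UQCRHL stood high, at 72.7 CPM against 7.81 to 15.5 and 23.5 CPM against 2.82 to 9.83. Both share sequence with another gene, and what part this had in their values was not tested.

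In 30 mg/kg replicate 5, NDUFA13 had 74.2 CPM against 46.5 to 56.0 in the rest of the group, ATP5MJ had 120 against 61.2 to 82.2, and the complex II level was 5.96 against 5.51 to 5.67. COX7B had 44.2 CPM in 30 mg/kg replicate 4 against 25.8 to 32.4. COX7C had 205 CPM in vehicle replicate 3 against 166 to 178.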

How the results depend on the processing

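The count of members called was 0 in each comparison under each of 29 alternatives (28 for any difference), namely other scalings, filters and tests, TPM, the compared groups alone, a length covariate, the replicate block and left-out libraries. The smallest adjusted p over these was 0.235 at 10 mg/kg, 0.122 at 30 mg/kg, 0.63 between the doses and 0.249 for any difference, and 0 to 7 members had an unadjusted p under 0.05. The median log2 fold change at 30 mg/kg ran from -0.001 to 0.112 over left-out libraries, the lowest without 10 mg/kg replicate 2 and 30 mg/kg replicate 5, and from 0.047 to 0.081 under the other settings. At 10 mg/kg it ran from -0.067 to 0.001 and from -0.177 to 0.003, the lowest on log2(TPM + 1), where the median of all genes was -0.116. Between the doses it ran from 0.021 to 0.14 and from 0.037 to 0.225. Leaving out ATP5MF-PTCD1, chosen after seeing the data, moved the complex V level differences by less than 1 SD. The length covariate gave 0.003 at 10 mg/kg and 0.049 at 30 mg/kg. With the replicate block 0 members were called and the medians were -0.058 at 10 mg/kg and 0.064 at 30 mg/kg. Of 18 same-numbered pairs 3 correlated over 0.1, with values from -0.281 to 0.224, and in 4 the best match carried the same number. Pairing by replicate number was not assumed in the main fit, and these values do not settle whether some libraries were paired. The shallow 10 mg/kg replicate 2, with 1939 member counts, limits precision in its group.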
